A study of Mus musculus with 6 samples.

Results

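The genes described here are 38 components and transcriptional targets of the unfolded protein response and of the integrated stress response, measured in bone marrow derived macrophages from GPS2 knockout and wild-type mice; GPS2 is a subunit of the NCoR/SMRT co-repressor complex. They were taken by name, in a list drawn up with earlier results of these data known. The list held 4 stress sensors, 19 genes of the chaperone branch driven by ATF6 and XBP1, and 15 genes of the ATF4 branch. Of the 38 genes, 35 had a probe set annotated to that gene alone, among 18820 genes tested. The exceptions were Pdia4, Atf5 and Ddit3, whose probe sets carry a second symbol and were not used. The GPS2KO group comprised 3 arrays of macrophages from male mice that the labels call GPS2 MKO, and the WT group comprised 3 arrays of macrophages from male wild-type mice. In both groups the marrow donors were about 12-16 weeks old, the cells were differentiated for 7 days in medium with 30% conditioned medium of L929 cells, a mouse fibroblast line that secretes the growth factor M-CSF, and they were left unstimulated. The labels give neither the promoter or Cre behind the deletion, nor the deleted exons, nor whether each array stands for a separate animal, so the tests gauge differences against array-to-array spread that may be technical. Total RNA was hybridised to Affymetrix gene arrays, and all levels are log2 intensities, which can be compared between groups for 1 gene but not between genes.

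When misfolded proteins accumulate in the endoplasmic reticulum (ER), the membrane sensors IRE1α (Ern1), PERK (Eif2ak3) and ATF6 start the unfolded protein response. IRE1α splices Xbp1 mRNA, ATF6 is cut to release a transcription factor, and both factors raise ER chaperones and the machinery that removes misfolded proteins. PERK, and GCN2 (Eif2ak4), which senses amino acid shortage, phosphorylate eIF2α, which lowers general translation and favours translation of ATF4, the factor behind amino acid synthesis genes and feedback genes of the integrated stress response.

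The messenger RNA of the sensor Atf6 fell in GPS2KO macrophages, while nearly all chaperone genes of the ATF6 and XBP1 branch had levels close to those of WT macrophages. In that branch only Herpud1, a membrane protein of ER-associated degradation, fell. In the ATF4 branch Ddit4, an inhibitor of the growth kinase mTORC1, and Aldh18a1, the first enzyme of proline synthesis, fell, and Cebpg, a partner of ATF4 on DNA, rose. In all, 1 member rose, 4 fell and 30 did not pass the test (limma, Benjamini-Hochberg adjusted p under 0.05 over all 18820 genes). The called members were 14.3% of those measured, against 6.72% of all tested genes and 10.6% of the genes that were not dim, the set to which all measured members belong. The dim genes were those under the 40th percentile of mean intensity. By direction, 2.9% of all genes rose and 3.83% fell, or 4.54% and 6.06% of the genes that were not dim. A lower mean in GPS2KO was found in 20 of the 35 members, against 53.6% of all genes and 54.9% of the genes that were not dim. The median change over the members was -0.014, beside -0.0077 over all genes. The plot of changes with their intervals shows each member by branch.

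**Figure D1:**
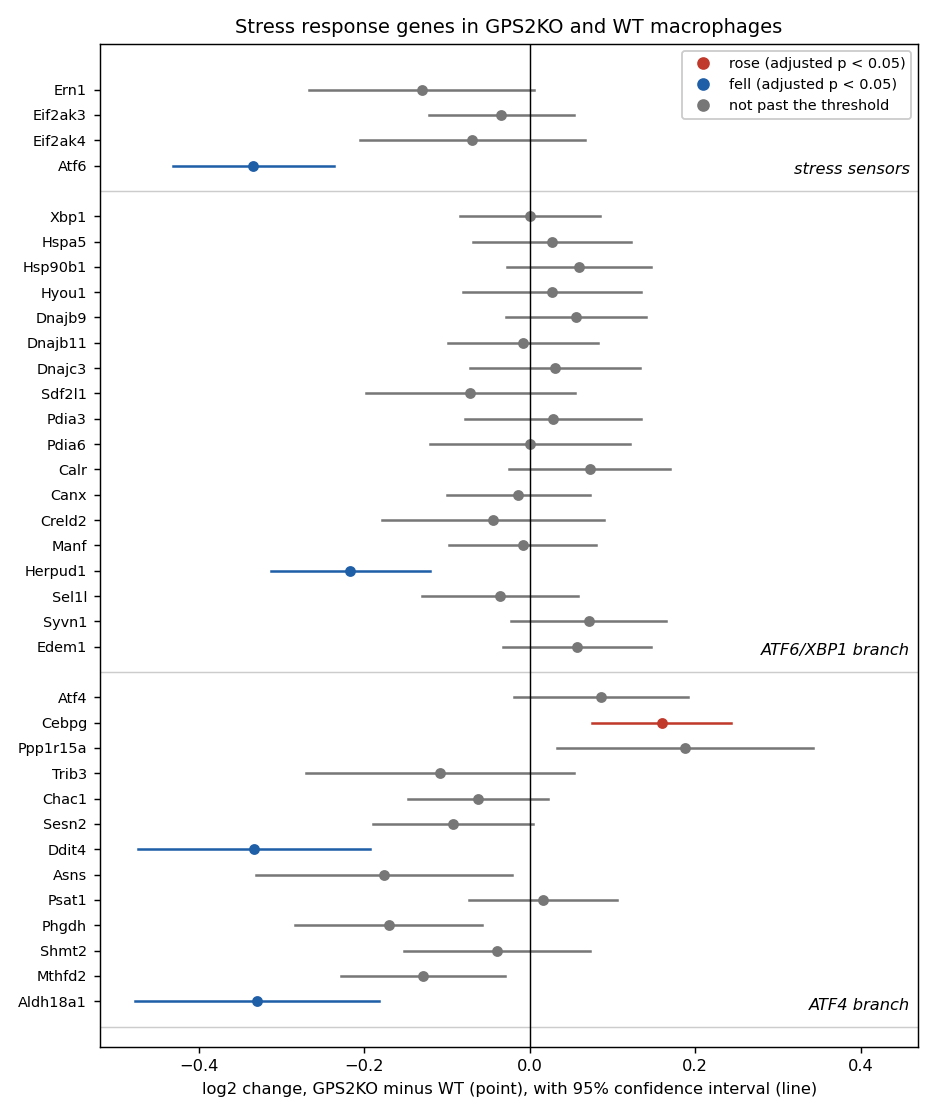
Log2 change (GPS2KO minus WT, horizontal axis) of each of the 35 measured members, with its 95% confidence interval from the limma fit, grouped into stress sensors, ATF6/XBP1 branch and ATF4 branch. Coloured points passed an adjusted p of 0.05: Atf6, Herpud1, Ddit4 and Aldh18a1 lie left of 0 and Cebpg right of it, while the other 17 genes of the ATF6/XBP1 branch lie between -0.072 and 0.072.

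The arrays were much alike. Their median log2 intensities over all probe sets were 5.5858, 5.5933 and 5.5975 in GPS2KO and 5.5654, 5.5651 and 5.5746 in WT. Each GPS2KO median was thus slightly above every WT median. The Gps2 probe set read 10.29, 10.16 and 10.19 on the GPS2KO arrays, against 10.94, 10.93 and 11.00 on the WT arrays, a change of -0.75 ± 0.047 (SE; limma adjusted p = 0.000256), so that its intensity in GPS2KO was 59.7% of that in WT. Whether this probe set lies in the deleted part of the gene is not given. Marker lists of 7 cell types were read alongside. All 8 macrophage markers were above the dim limit, with summed intensities of 43224 to 43374 in GPS2KO and 41435 to 42704 in WT; Mertk and Itgam rose and the other 6 did not pass. Of the 9 fibroblast and stromal markers 1 rose (Dcn) and 2 fell (Pdgfrb and Col1a1), with sums of 16532 to 16579 in GPS2KO and 17414 to 18029 in WT. Of the 9 B and plasma cell markers 6 were dim, the plasma cell genes Jchain and Mzb1 among them, and Cd79b fell. The plasma cell marker Prdm1 was not dim, with means of 7.98 in GPS2KO and 8.18 in WT. Its groups did not overlap, and it did not pass (limma adjusted p = 0.0507). The sums of the 9 markers were 2058 to 2165 in GPS2KO and 2124 to 2312 in WT. Most of each sum was Sdc1, another plasma cell marker, with means of 10.66 in GPS2KO and 10.67 in WT. The neutrophil, dendritic cell, T and NK cell, and mast cell lists had 4 or more dim markers each, and among them Ngp and Cd4 rose. The neutrophil sums were 308 to 341 in GPS2KO and 288 to 306 in WT, and the T and NK cell sums 675 to 724 in GPS2KO and 548 to 558 in WT. The T and NK cell sum was mostly Cd4 (9.18 ± 0.060 in GPS2KO and 8.75 ± 0.020 in WT; SD, n = 3 each), the other 5 markers of that list being dim and none of them past the test. In these bulk samples fewer cells of a type and less RNA per cell cannot be told apart, and the part of these marker differences in the results below was not tested.

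Among the stress sensors, all 4 had a lower mean in GPS2KO and 1 passed the test (25%). Among all genes 53.6% had a lower mean and 6.72% passed, or 54.9% and 10.6% of the genes that were not dim. The groups did not overlap in 1 of the 4 sensors (25%), beside 27.1% of all genes and 37.3% of those not dim. Atf6, the sensor that is cut to release a transcription factor, read 10.68, 10.77 and 10.76 in GPS2KO and 11.05, 11.06 and 11.09 in WT. The groups did not overlap, and their gap was far wider than the spread within either. The means were 10.74 ± 0.053 in GPS2KO and 11.07 ± 0.021 in WT (SD, n = 3 each), a change of -0.33 (95% interval -0.43 to -0.24), or 1.26-fold lower, with a limma adjusted p of 0.00366. The call held with any 1 array left out, at adjusted p of 0.0144 to 0.0186. Ern1, the kinase and nuclease that splices Xbp1, read 9.14, 9.29 and 9.19 in GPS2KO and 9.26, 9.34 and 9.42 in WT. The groups overlapped, and its change of -0.13 (-0.27 to 0.0054) had an adjusted p of 0.261. Eif2ak3, which encodes PERK, read 9.59, 9.61 and 9.64 in GPS2KO against 9.62, 9.66 and 9.66 in WT. Its change of -0.034 did not pass (adjusted p = 0.667). Eif2ak4, which encodes GCN2, read 8.92, 8.93 and 8.94 in GPS2KO and 8.87, 9.06 and 9.07 in WT, with 1 WT array below all GPS2KO arrays and a change of -0.069 (adjusted p = 0.565). The sensors' median change was -0.10. The arrays read mRNA, so cleavage of ATF6, phosphorylation of eIF2α and translation were not measured.

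In the ATF6/XBP1 branch, 0 of 18 measured genes rose, 1 fell and 17 did not pass limma's test, and 1 had an unadjusted p under 0.05, Herpud1 itself. The called share of 5.56% compares with 6.72% of all genes and 10.6% of the genes that were not dim. The same 5.56% at the unadjusted level compares with 20.8% of all genes and 28.7% of the genes that were not dim. The changes of the 17 others lay between -0.072 and 0.072, and their 95% intervals between -0.20 and 0.17, so that a change outside those bounds lay outside every interval. The median absolute change in the branch was 0.034, against 0.062 over all genes and 0.070 over genes that were not dim. In 5 of the 18 genes (27.8%) the groups did not overlap, 4 with GPS2KO higher and 1 lower. This compares with 27.1% of all genes and 37.3% of the genes that were not dim. The median signed change was 0.014, and it was -0.010 when each array was centred on its own median, so the branch has no direction that is free of the scaling. Xbp1, whose spliced form encodes the second factor of the branch, read 12.22, 12.26 and 12.22 in GPS2KO and 12.25, 12.23 and 12.23 in WT. The groups overlapped fully, with a change of 0.00036 (-0.084 to 0.085; adjusted p = 0.996). The probe set sums the forms of Xbp1 mRNA, so splicing was not measured here.

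The 7 genes for HSP70 and HSP90 chaperones and their helpers included none that passed, and their median change was 0.027. Hspa5, the HSP70 chaperone BiP that holds the sensors inactive, read 12.57, 12.59 and 12.54 in GPS2KO and 12.55, 12.58 and 12.49 in WT. These values interleave, and the change of 0.027 (-0.068 to 0.12) had an adjusted p of 0.768. Hsp90b1, the ER form of HSP90, had means of 12.30 ± 0.017 in GPS2KO and 12.24 ± 0.029 in WT (SD, n = 3 each). Its groups did not overlap, yet the change of 0.059 had an adjusted p of 0.426. Dnajb9, a co-chaperone of BiP, was also higher on every GPS2KO array than on any WT array, by 0.056 (adjusted p = 0.444). Hyou1, a large chaperone of the HSP70 family, differed by 0.027, and Dnajc3, an inhibitor of PERK and co-chaperone of BiP, by 0.031. Dnajb11, another co-chaperone, differed by -0.0085 and Sdf2l1, its binding partner, by -0.072. Each of these had overlapping groups.

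The lectins, disulfide isomerases and secreted factors of the branch were as flat. Calr, the lectin chaperone calreticulin, had means of 12.46 ± 0.0076 in GPS2KO and 12.39 ± 0.056 in WT. Its groups did not overlap, and the change of 0.072 did not pass (adjusted p = 0.389). Canx, the membrane lectin calnexin, differed by -0.014, and the disulfide isomerases Pdia3 and Pdia6 by 0.028 and 0.00047. Creld2 and Manf, factors that cells release under ER stress, differed by -0.045 and -0.0087.

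The degradation genes differed among themselves. Herpud1, which ER stress induces and which helps assemble the ligase complex that sends ER proteins to the proteasome, read 10.70, 10.65 and 10.69 in GPS2KO and 10.91, 10.94 and 10.85 in WT. Every GPS2KO array was below every WT array. The means were 10.68 ± 0.025 in GPS2KO and 10.90 ± 0.047 in WT (SD, n = 3 each), a change of -0.22 (-0.31 to -0.12), 1.16-fold lower, with an adjusted p of 0.0211. Leaving out GPS2KO array 1, 2 or 3 gave adjusted p of 0.0584, 0.0849 and 0.0683, and leaving out WT array 1 or 2 gave 0.0683 and 0.0686, so the call was lost without any of these and held only without WT array 3 (0.0323). Syvn1, the ubiquitin ligase Hrd1, had means of 10.16 ± 0.0081 in GPS2KO and 10.09 ± 0.049 in WT, groups that did not overlap and a change of 0.071 (adjusted p = 0.379). Sel1l, the ligase's partner, differed by -0.036, and Edem1, a lectin that hands glycoproteins to degradation, by 0.058 (adjusted p = 0.459). Neither passed.

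The factors of this branch bind known DNA elements, so the promoters of the members were read for them. The RefSeq promoter table (GRCm38.p6) holds windows of 300 bases, 250 before and 50 after each gene start, for 27025 genes. Of the 38 members 35 had a window, and Atf6, Hyou1 and Manf had none. In all, 4 elements were searched on both strands: the ER stress element ERSE (CCAAT, then 9 bases of any kind, then CCACG), the shorter ERSE-II (ATTGG, then 1 base of any kind, then CCACG), the XBP1 element UPRE (TGACGTGG) and the C/EBP-ATF response element CARE (TGATGNAA), which ATF4 dimers bind. ERSE and ERSE-II both end in CCACG, and no matches of different elements overlapped in the members. ERSE was in 8 of the 17 ATF6/XBP1 windows (47.1%), against 0.137% of all genes, and ERSE-II in 2 (11.8%), against 0.0444%. UPRE was in 0 of them, against 0.714% of all genes. CARE was in 3 of the 15 ATF4 branch windows (20%), Trib3, Chac1 and Asns, and in 1 ATF6/XBP1 window, against 4.51% of all genes. The branch genes were named as known targets of the factors that bind these elements. A high share of matches was therefore built into the choice and is no separate result. The windows below set the promoter of Herpud1, the gene of the branch that fell, beside an ERSE and an ERSE-II promoter whose genes did not pass and beside 2 CARE promoters of the ATF4 branch. Each is printed 5′ to 3′ on the strand of its gene, with the matched elements in capitals.
Herpud1: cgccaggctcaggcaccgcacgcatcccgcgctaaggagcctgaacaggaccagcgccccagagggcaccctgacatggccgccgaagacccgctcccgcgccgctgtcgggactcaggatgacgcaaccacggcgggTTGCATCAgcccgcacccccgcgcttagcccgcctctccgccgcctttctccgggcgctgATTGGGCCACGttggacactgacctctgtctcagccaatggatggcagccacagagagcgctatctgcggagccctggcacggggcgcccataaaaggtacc
Hspa5: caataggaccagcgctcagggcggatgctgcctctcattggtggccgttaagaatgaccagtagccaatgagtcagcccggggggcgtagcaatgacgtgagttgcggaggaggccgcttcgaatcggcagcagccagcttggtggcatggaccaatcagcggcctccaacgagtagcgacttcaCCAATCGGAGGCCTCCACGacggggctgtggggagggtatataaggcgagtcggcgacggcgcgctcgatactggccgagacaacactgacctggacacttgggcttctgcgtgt
Dnajb11: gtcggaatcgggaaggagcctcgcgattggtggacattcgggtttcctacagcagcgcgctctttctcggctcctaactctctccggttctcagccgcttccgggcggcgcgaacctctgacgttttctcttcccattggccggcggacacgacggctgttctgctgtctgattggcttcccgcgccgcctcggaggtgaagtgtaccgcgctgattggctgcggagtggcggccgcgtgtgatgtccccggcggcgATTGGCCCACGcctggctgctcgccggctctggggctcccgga
Asns: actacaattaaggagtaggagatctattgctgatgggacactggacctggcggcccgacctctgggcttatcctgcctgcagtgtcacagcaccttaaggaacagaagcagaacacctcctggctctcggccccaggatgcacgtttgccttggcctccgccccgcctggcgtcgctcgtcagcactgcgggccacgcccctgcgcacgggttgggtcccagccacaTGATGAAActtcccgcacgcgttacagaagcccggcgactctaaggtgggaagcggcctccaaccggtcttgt
Trib3: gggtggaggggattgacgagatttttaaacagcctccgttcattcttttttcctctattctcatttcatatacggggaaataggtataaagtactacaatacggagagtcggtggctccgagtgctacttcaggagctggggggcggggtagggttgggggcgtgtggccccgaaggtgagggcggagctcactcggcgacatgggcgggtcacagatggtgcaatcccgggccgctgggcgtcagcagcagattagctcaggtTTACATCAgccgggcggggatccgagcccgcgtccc

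The Herpud1 window (chr8:94386179-94386478, + strand) held CARE on the reverse strand at bases 139 to 146, counted from 1 at its 5′ end, and ERSE-II at bases 199 to 209. It was the only member window with elements of both kinds. The Hspa5 window (chr2:34771840-34772139, + strand) held ERSE at bases 186 to 204, and the Dnajb11 window (chr16:22857595-22857894, + strand) held ERSE-II at bases 258 to 268. The Asns window (chr6:7693160-7693459, - strand) held CARE at bases 228 to 235, and the Trib3 window (chr2:152344011-152344310, - strand) held it on the reverse strand at bases 265 to 272. A match is a description of letters and no measure of binding, and a window without a match says only that these letters were not in it. Among the 10 measured members with ERSE or ERSE-II, 0 rose and 1 fell, Herpud1, with a median change of 0.014. Among all 29 tested genes with either element, 1 rose and 1 fell, or 6.9%, beside 6.74% of the 14749 tested genes with a window. The gene that rose was Lrif1 (0.17, adjusted p = 0.038), named here after its value was seen. The 4 members with CARE, Herpud1, Asns, Trib3 and Chac1, all had a lower mean in GPS2KO, and 1 of them passed. Among all 535 tested genes with CARE, 287 had a lower mean, with a median change of -0.0076. Of those 535 genes, 16 rose and 26 fell (7.85%).

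**Figure D2:**
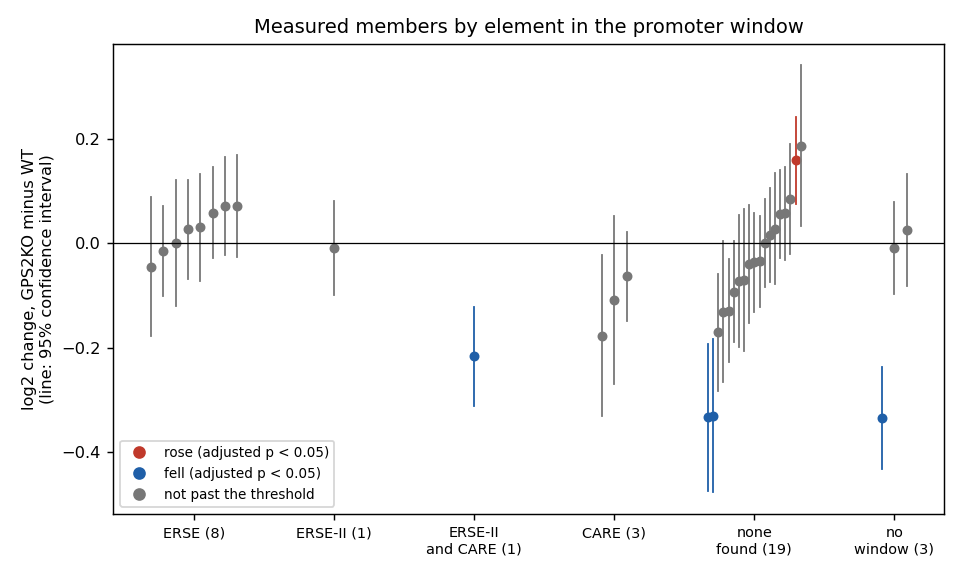
Log2 change (GPS2KO minus WT, vertical axis) with 95% confidence interval of the 35 measured members, sorted within groups by the element found in the promoter window; numbers of genes are in brackets. The 8 members with ERSE lie around 0, Herpud1 alone holds ERSE-II with CARE and lies at -0.22, and the 3 other CARE members lie below 0 without passing the threshold.

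The ATF4 branch held 3 of the 5 calls, in both directions. Of its 13 measured genes 1 rose, 2 fell and 10 did not pass. The called share was 23.1%, beside 6.72% of all genes and 10.6% of the genes that were not dim. At the unadjusted level 2 were higher and 5 lower in GPS2KO, together 53.8%, where 8.88% of all genes were higher and 11.9% lower (12% and 16.6% of the genes that were not dim). In 10 of the 13 genes (76.9%) the groups did not overlap, 3 with GPS2KO higher and 7 with GPS2KO lower. Among all genes this held for 11.9% with GPS2KO higher and 15.2% lower, 27.1% together, and among genes that were not dim for 37.3%. The median change was -0.093, and the median absolute change of 0.13 compares with 0.034 in the ATF6/XBP1 branch. Over all 35 measured members, 16 had groups that did not overlap (45.7%).

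The transcription factors and the brake on eIF2α phosphorylation had higher means in GPS2KO. Atf4, whose output is set mainly by translation, read 8.55, 8.46 and 8.45 in GPS2KO and 8.37, 8.45 and 8.39 in WT. The lowest GPS2KO array lay just above the highest WT array, and the change of 0.086 did not pass (adjusted p = 0.343). Cebpg, which pairs with ATF4 on CARE sequences, read 8.87, 8.86 and 8.85 in GPS2KO and 8.68, 8.69 and 8.72 in WT. Its groups were tight and apart. The change was 0.16 (0.075 to 0.24), 1.12-fold higher, with an adjusted p of 0.0424. This call was lost when any array was left out, at adjusted p of 0.0731 to 0.129, and on arrays centred on their medians (0.0671). Ppp1r15a, the GADD34 subunit that directs dephosphorylation of eIF2α, read 8.13, 8.06 and 7.95 in GPS2KO and 7.75, 7.88 and 7.94 in WT. Its groups met without overlapping, and the change of 0.19 ± 0.066 (SE) had an adjusted p of 0.158.

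The other feedback genes had lower means in GPS2KO. Ddit4, which encodes REDD1, read 8.15, 8.01 and 7.92 in GPS2KO and 8.35, 8.39 and 8.34 in WT. All GPS2KO arrays were below all WT arrays, with a wider spread among them. The means were 8.03 ± 0.11 in GPS2KO and 8.36 ± 0.026 in WT (SD, n = 3 each), a change of -0.33 (-0.47 to -0.19), 1.26-fold lower, with an adjusted p of 0.0168. The call was lost without GPS2KO array 2 (0.0660) and without WT array 1, 2 or 3 (0.0547, 0.0619 and 0.0554), and held without GPS2KO array 1 (0.0101) or 3 (0.0453). Sesn2, another stress-induced inhibitor of mTORC1 signalling, had means of 9.38 ± 0.039 in GPS2KO and 9.47 ± 0.040 in WT, with no overlap and a change of -0.093 (adjusted p = 0.261). Chac1, which degrades glutathione, differed by -0.063 (adjusted p = 0.389), again without overlap. Trib3, a pseudokinase that dampens ATF4 output, differed by -0.11 with overlapping groups (adjusted p = 0.439).

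The 6 enzymes of amino acid and folate metabolism had a median change of -0.15, and 5 of them had a lower mean in GPS2KO. Aldh18a1 fell, and 4 of the 6 had an unadjusted p under 0.05 with groups that did not overlap. Among genes that were not dim, 54.9% had a lower mean, 28.7% had an unadjusted p under 0.05, and in 37.3% the groups did not overlap. Aldh18a1 read 10.59, 10.55 and 10.53 in GPS2KO and 11.02, 10.84 and 10.79 in WT. The groups were apart, and WT array 1 stood above the other WT arrays. The means were 10.56 ± 0.030 in GPS2KO and 10.89 ± 0.12 in WT (SD, n = 3 each), a change of -0.33 (-0.48 to -0.18), 1.26-fold lower, with an adjusted p of 0.0221. It was lost without GPS2KO array 1, 2 or 3 (0.0573, 0.0796 and 0.0781) and without WT array 2 (0.0512), and held without WT array 1 (0.0294) or 3 (0.0285). Asns, asparagine synthetase, read 10.96, 10.91 and 10.85 in GPS2KO and 11.21, 11.06 and 10.97 in WT. Its WT arrays spread as for Aldh18a1, with array 1 highest, and the change of -0.18 ± 0.067 (SE) had an adjusted p of 0.184. Phgdh, which starts serine synthesis, read 9.15, 9.21 and 9.10 in GPS2KO and 9.35, 9.25 and 9.37 in WT. The groups did not overlap, and the change of -0.17 ± 0.048 (SE) had an adjusted p of 0.0847. Mthfd2, a mitochondrial folate enzyme, read 10.20, 10.19 and 10.20 in GPS2KO and 10.32, 10.27 and 10.38 in WT. All GPS2KO arrays were below all WT arrays, with a change of -0.13 ± 0.043 (SE; adjusted p = 0.131). With limma's prior variance made to depend on mean intensity, Asns, Phgdh and Mthfd2 passed, at adjusted p of 0.0416, 0.0265 and 0.0318. That setting raised the calls over all genes from 545 that rose and 720 that fell to 926 and 1248. Asns and Mthfd2 passed in no other setting, and Phgdh otherwise only without dim genes (0.0387). Psat1, the next enzyme of serine synthesis, differed by 0.016 (adjusted p = 0.86), and Shmt2, the mitochondrial serine hydroxymethyltransferase, by -0.040 (adjusted p = 0.704). Both had overlapping groups.

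**Figure D3:**
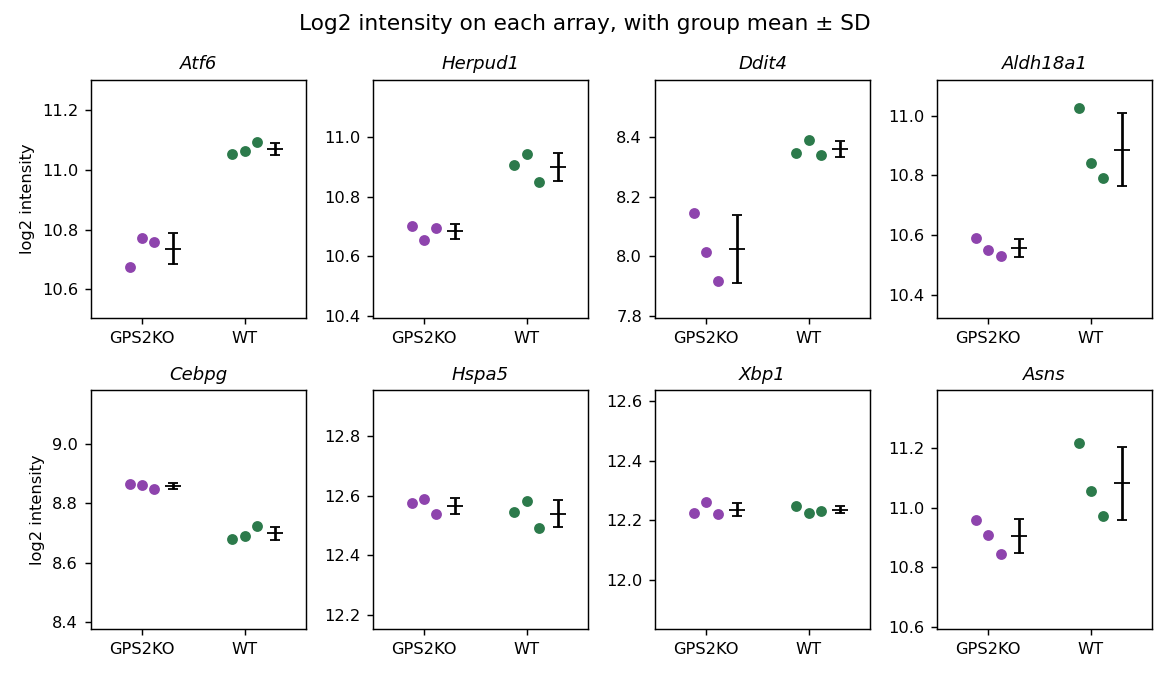
Log2 intensity (vertical axis, its own range but the same span in each panel) of 8 members on the 3 GPS2KO arrays (purple) and the 3 WT arrays (green), with mean ± SD at the right of each group. Atf6, Herpud1, Ddit4 and Aldh18a1 are lower and Cebpg is higher on every GPS2KO array, Hspa5 and Xbp1 interleave, and the WT arrays of Asns and Aldh18a1 spread most.

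The 5 called genes differed in how often their call was kept with 1 array left out, as the plot of adjusted p shows. Atf6 stayed under 0.05 throughout, and its adjusted p over all 14 alternative settings was at most 0.0199. Ddit4 held in 2 of the 6 fits that leave out an array, Aldh18a1 in 2, Herpud1 in 1 and Cebpg in 0. In each of these fits the direction of all 5 was kept. The fits hold fewer samples, and the genes that rose dropped from 545 to between 322 and 376. Those that fell dropped from 720 to between 419 and 503. A lost call therefore does not show that it rested on the array left out. The change of Cebpg was 0.15 to 0.17 in these fits, beside 0.16 with all 6 arrays.

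**Figure D4:**
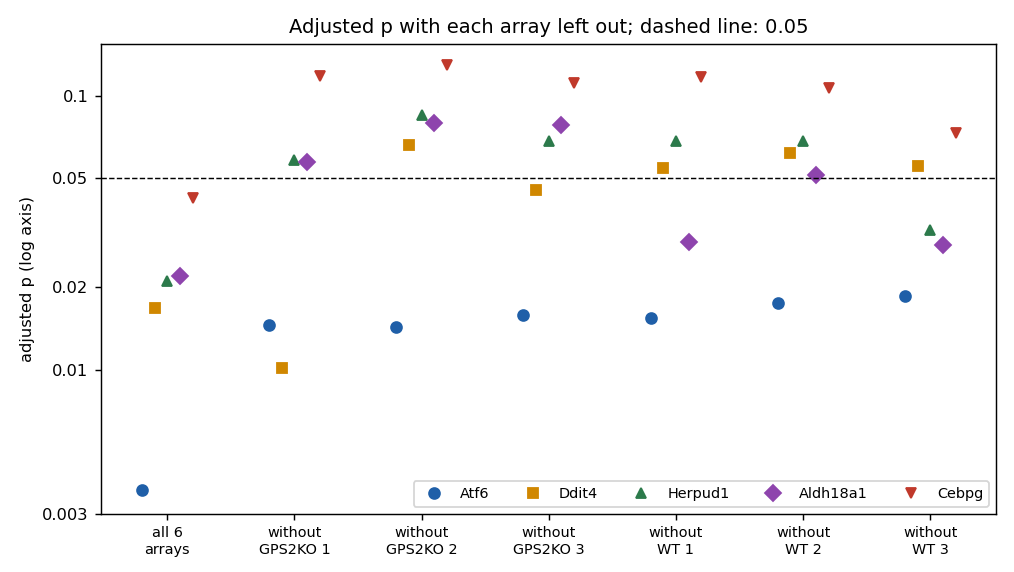
Adjusted p (log axis) of the 5 called members with all 6 arrays and with each array left out in turn; the dashed line marks 0.05. Atf6 lies below the line in every fit, Cebpg lies above it in every fit that leaves out an array, and Ddit4, Herpud1 and Aldh18a1 lie on both sides.

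Several members had more than 1 probe set. The 3 probe sets of Phgdh were all lower in GPS2KO, by -0.17, -0.18 and -0.26. The 2 of Shmt2 differed in sign, -0.040 for the one used and 0.057 for the other, and the 2 of Dnajc3 held identical values. No member lay among the 10 tested genes nearest to another member. Of the 10 nearest to Cebpg 1 rose and 2 fell, and the one that rose was Cebpa, the adjacent C/EBP gene (0.39, adjusted p = 0.004), named after its value was seen. Of the 10 nearest to Atf6 1 rose and 2 fell, and of those nearest to Herpud1 none passed. Of the 10 nearest to Ddit4 1 fell, and of the 10 nearest to Aldh18a1 1 rose. Among all tested genes 6.72% passed, and among the genes that were not dim 10.6%.

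Other genes of the same pathways were taken from 6 lists by function. The 24 further regulators of both responses were lower in GPS2KO in 20 cases, with 1 that rose, 2 that fell and a median of -0.073. Among all genes 53.6% had a lower mean and 6.72% passed, or 54.9% and 10.6% of the genes that were not dim. Impact, an inhibitor of GCN2, read 9.82, 9.85 and 9.83 in GPS2KO and 9.55, 9.49 and 9.51 in WT. The groups lay far apart, the change was 0.31 ± 0.037 (SE), or 1.24-fold higher (adjusted p = 0.00299), and the call held with any array left out (0.0101 to 0.0179). Nupr1, a stress-induced chromatin protein, read 9.72, 9.81 and 9.73 in GPS2KO and 10.00, 9.93 and 10.10 in WT. All GPS2KO arrays were lower, with a change of -0.26 (adjusted p = 0.0319), lost without GPS2KO array 1, 2 or 3 (0.102, 0.0557 and 0.104) or WT array 1 or 3 (0.0826 and 0.0800). Jdp2, a bZIP repressor, fell by 0.18 on the log2 scale (adjusted p = 0.0439), and lost the call whichever array was left out (0.0732 to 0.145). Mbtps1, another of these regulators, was lower on every GPS2KO array than on any WT array. Its change of -0.12 did not pass (limma adjusted p = 0.102). The other kinases of eIF2α, Eif2ak1 and Eif2ak2, differed by 0.016 and -0.12, and the ATF6 homologue Atf6b by -0.13, none of them past the test (adjusted p = 0.855, 0.316 and 0.214). Eif2ak1, Eif2ak2 and Atf6b were named for their function after their values were seen.

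In the lists of amino acid supply most genes had a lower mean and few passed. Of 25 further amino acid and folate genes tied to ATF4, 18 had a lower mean, 9 had an unadjusted p under 0.05, all lower, and 1 fell, with a median of -0.075. That gene was Slc7a5, the carrier of large neutral amino acids, at 11.21, 11.27 and 11.23 in GPS2KO and 11.42, 11.40 and 11.41 in WT, a change of -0.17 (adjusted p = 0.0336). The call was lost with any array left out (0.0688 to 0.109). Among 17 cytosolic aminoacyl-tRNA synthetases, which load amino acids onto tRNA, 16 had a lower mean, 0 rose or fell by limma, and 3 had an unadjusted p under 0.05, all lower. At these levels 53.6% of all genes had a lower mean and 20.8% an unadjusted p under 0.05, or 54.9% and 28.7% of the genes that were not dim. The adjusted test was passed by 6.72% of all genes and 10.6% of the genes that were not dim. The median was -0.043, and the nearest to the threshold was Hars, the histidine enzyme, at -0.13 (adjusted p = 0.0996).

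The ER lists held no call, where 6.72% of all genes and 10.6% of the genes that were not dim passed. An unadjusted p under 0.05 was found in 20.8% and 28.7% of these, and a lower mean in 53.6% and 54.9%. Of 20 further ER chaperones and folding enzymes, 15 had a lower mean, with a median of -0.042, and 0 passed limma's adjusted test while 3 had an unadjusted p under 0.05. The nearest to passing was Fkbp2, a proline isomerase of the ER, at -0.15 (adjusted p = 0.0709). Of 21 further genes of ER-associated degradation, 0 passed and 4 had an unadjusted p under 0.05, with a median of 0.011, or -0.013 with each array centred on its median. Wfs1, a membrane protein of the ER, differed by 0.14 (adjusted p = 0.063). Of 27 genes of the translocon, signal peptidase and N-glycosylation, 0 passed and 2 had an unadjusted p under 0.05, with a median of -0.013. Sec61b, a subunit of the channel through which new proteins enter the ER, differed by -0.20 (adjusted p = 0.0621).

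**Figure D5:**
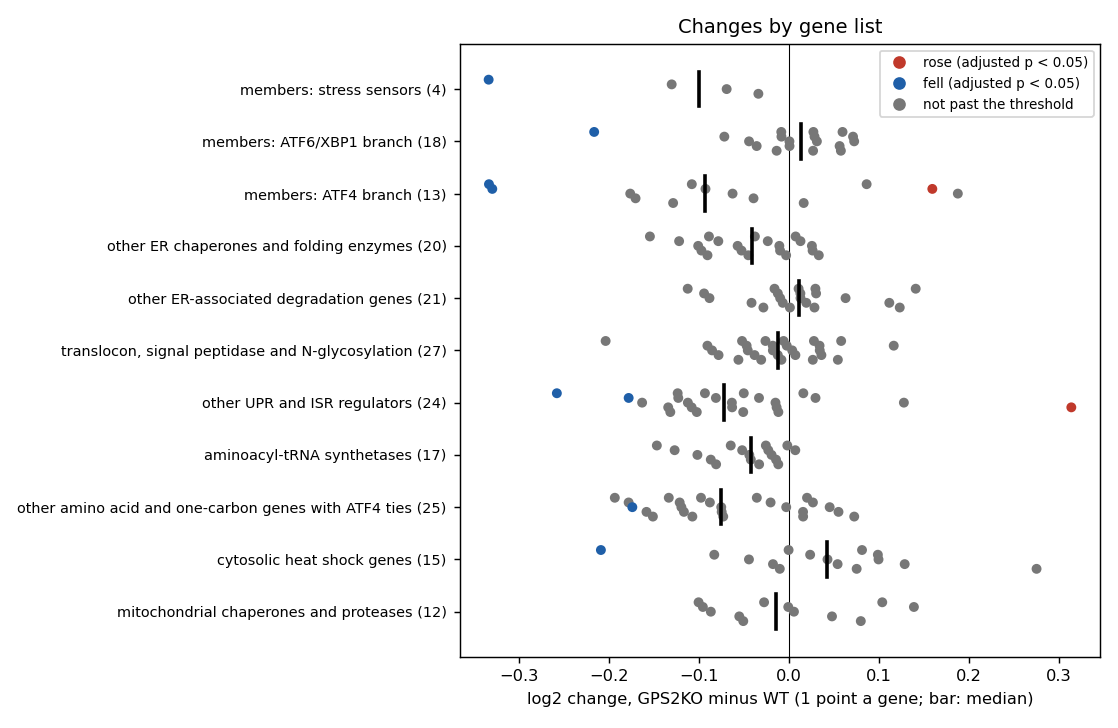
Log2 change (GPS2KO minus WT, horizontal axis) of every measured gene in the members' branches, in the 6 further pathway lists and in the cytosolic and mitochondrial lists, with 1 point a gene, the number of genes in brackets and the median as a bar. The ATF6/XBP1 branch clusters at 0 apart from Herpud1, and Impact stands alone at 0.31 among the other regulators.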

How the data were processed

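Expression was read on 6 Affymetrix arrays, 3 of GPS2KO and 3 of WT macrophages, grouped by the labels. The deposited values are log2 intensities per probe set, and the authors name RMA and the oligo package, per the submitters' processing notes; versions and further steps are not given in the sources used here, and no scanner files were used here. RMA as usually run quantile-normalises the arrays, which is meant to remove any shift shared by all genes. In the deposited values the array medians were still slightly higher in GPS2KO than in WT. Centring each array on its median moved the median change over all genes from -0.0077 to -0.032. Of 35556 probe sets, 21218 had 1 gene symbol in the platform annotation, 1881 several and 12457 none listed there. Each gene, under its platform symbol, took its single-symbol probe set with the highest mean over the 6 arrays, giving 18820 genes. Symbols of the gene lists were matched to these, 9 of them through the RefSeq table. Dim genes were those under the 40th percentile of the mean, 5.49 on the log2 scale. GPS2KO and WT were compared in all genes with limma 3.58.1 (lmFit and eBayes; R 4.3.3), with Benjamini-Hochberg adjustment over all 18820 genes and a threshold of 0.05. The code was tested on simulated data. Array data give no counting depth, so the 3 arrays a group limit the precision. A fold is 2 to the power of the log2 change.

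The members and lists were chosen with earlier results of these data known, so no p was adjusted over a list alone and no list was tested as a set. The text names all 38 members, Gps2 and, from each further list, up to 4 genes with the smallest p; other genes, markers of cell types included, were named after their values were seen. The 6 pathway, 2 comparison and 7 marker lists were tallied by counts and medians. Alternatives were other scaling, variance models, probe set choices, a dim filter, each array left out and a replicate block; the unadjusted threshold was added after seeing the data. Promoter windows came from RefSeq's table (GRCm38.p6). Neighbours were the 10 nearest tested genes in RefSeq order.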

Additional observations from a re-analysis of the deposited data

How the results depend on the processing

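Of 490 member results under 14 alternative settings, 439 kept their direction and side of the threshold, 26 kept the direction but lost the call, 4 gained a call and 21 changed sign. The changes of sign were all in 10 genes that passed the adjusted threshold in none of the settings, so none of these has a settled direction; their cause was not tested. Quantile normalisation gave a change of -0.019 for Xbp1 and -0.0022 for Pdia6, centring gave -0.023 for Xbp1, -0.023 for Pdia6 and -0.0076 for Psat1, and the mean of probe sets gave 0.0086 for Shmt2. With an array left out, Xbp1 ranged over -0.013 to 0.0076, Hyou1 over -0.011 to 0.056, Dnajb11 over -0.030 to 0.0042, Dnajc3 over -0.0028 to 0.052, Pdia3 over -0.0079 to 0.056, Pdia6 over -0.050 to 0.032, Creld2 over -0.077 to 0.017, Manf over -0.025 to 0.011 and Psat1 over -0.00057 to 0.038. No call on Atf6 or Gps2 was lost, and the counts among the stress sensors stayed the same. Over all genes, 545 rose and 720 fell; a variance trend gave 926 and 1248, testing every probe set 275 and 343, and the unadjusted threshold 1672 and 2234. Without dim genes 1154 fell. Leaving out 1 array gave 322 to 376 that rose and 419 to 503 that fell, with fewer samples in the fit. Centring each array on its median gave 460 that rose and 1061 that fell, and moved the median of all genes to -0.032. The 1 member that rose, of the ATF4 branch, became 0 after centring, with every probe set tested, with a replicate block and with any array left out (0 to 0), and 2 at the unadjusted threshold. The 4 members that fell became 7 with a variance trend and at the unadjusted threshold, 1 with every probe set tested, and 1 to 3 with an array left out: 2 without GPS2KO array 1 or 3 or WT array 1, 1 without GPS2KO array 2 or WT array 2, and 3 without WT array 3. The 2 of the ATF4 branch that fell became 5 with the trend and at the unadjusted threshold, 0 with every probe set, and 0 to 1 with an array left out. The 1 of the ATF6/XBP1 branch became 0 with every probe set and with the replicate block, and 0 to 1 with an array left out. With every probe set tested, more features share the adjustment; other causes were not tested. Over all genes, arrays of the same number did not deviate together (r = 0.0035, 0.026 and -0.006). This cannot exclude a pairing that shows in few genes. Asns and Aldh18a1 were highest on array 1 and lowest on array 3 in both groups. This order was seen in the values, and how many genes share it was not counted, so it does not speak to pairing. Whether the number pairs the arrays is not known. With the replicate block 370 genes rose and 492 fell, and the adjusted p was 0.0667 for Herpud1 and 0.111 for Cebpg. The 3 arrays a group, mRNA as the sole readout and the unknown match of arrays to animals limit these results.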

Other observations

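Chaperones of other compartments were read as a comparison. Of 15 measured cytosolic heat shock genes, 0 rose and 1 fell by limma, 2 had an unadjusted p under 0.05, and the median change was 0.043, or 0.019 with each array centred on its median. Bag3, a co-chaperone of HSP70 that steers clients to autophagy, fell by 0.21 on the log2 scale (adjusted p = 0.0358). Its call held without GPS2KO array 1 (0.0303) and was lost without GPS2KO array 2 or 3 (0.123 and 0.121) and without WT array 1, 2 or 3 (0.0903, 0.0829 and 0.107). Hspa4l, a cytosolic HSP110 chaperone, differed by 0.28 without passing (adjusted p = 0.0625). Of 12 mitochondrial chaperones and proteases, 0 passed limma's adjusted test, 3 had an unadjusted p under 0.05 and the median was -0.014. Beside both lists, 6.72% of all genes passed and 20.8% had an unadjusted p under 0.05. Among genes that were not dim the shares were 10.6% and 28.7%. Hspd1, the mitochondrial HSP60, differed by 0.14 (adjusted p = 0.125), and Lonp1, a protease of the matrix, by -0.10 (adjusted p = 0.23).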
